A study of Mus musculus with 26 samples.

Results

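The dual-specificity MAP kinase phosphatases are enzymes that remove both phosphates from the activation loop of MAP kinases and so switch them off. This account covers 9 of their mRNAs, Dusp1, Dusp2, Dusp4, Dusp5, Dusp6, Dusp7, Dusp10, Dusp16 and the small atypical phosphatase gene Dusp3, out of 19549 gene rows in the count tables. A member is a row that carries exactly 1 of these symbols. The 9 were selected on their polysome minus total differences per tumour and their size effects, so those values, and the batch differences computed from them, are given as a description without a p-value. All 9 passed the filter on low counts in each of the 5 comparisons below.

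Macrophages were sorted from 13 mouse mammary tumours by CD11b and F4/80, with Ly6G-positive cells left out. The tumours were grown from PyMT mammary tumour cells placed in the mammary gland of female FVB mice that were 5 to 7 weeks old, and the mice carried no other allele or drug treatment that the labels name. Each tumour gave a polysome library, of mRNA with at least 3 ribosomes from cells held in cycloheximide (a drug that stalls ribosomes on mRNA), and a total mRNA library, from about 10% of the sorted cells. Large tumours (1504 to 2245 mg, n = 5) and small tumours (467 to 841.8 mg, n = 8) were compared, and the labels place 6 tumours in batch 2 (large replicates 3 to 5 and small replicates 6 to 8) and 7 in batch 1 (large replicates 1 and 2 and small replicates 1 to 5). The macrophages of a tumour were not divided further by the sort.

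MAP kinase phosphatases sit in a feedback loop: several of their genes are themselves induced by the kinases that they inactivate. The nuclear enzymes of Dusp1, Dusp2, Dusp4 and Dusp5 are encoded by immediate early type genes, the enzymes of Dusp6 and Dusp7 act on ERK in the cytoplasm, and those of Dusp10 and Dusp16 act on JNK and p38. In macrophages Dusp1 is best known as the brake on p38 that limits cytokine output after a Toll-like receptor signal. Dusp3 lacks the kinase-binding domain of the others and acts on ERK and JNK.

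These 9 genes share a catalytic signature, a His and a Cys codon, 5 further codons and an Arg codon, which other genes carry too. This pattern (CAT or CAC, then TGT or TGC, 5 codons of any kind and any Arg codon, read in frame on the coding strand only) was found in 9 of 9 members and in 351 of 11079 tested genes with an annotated transcript, 3.17%. It is shown for a nuclear member (Dusp1), both cytoplasmic members (Dusp7 and Dusp6) and the atypical member (Dusp3), with the catalytic Cys codon in capitals, from the transcripts of GENCODE M21 on GRCm38 (mm10).
Dusp1, chr17:26506592-26506615, minus strand: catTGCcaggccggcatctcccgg
Dusp7, chr9:106373674-106373697, plus strand: cacTGCctagcaggcatcagccgt
Dusp6, chr10:99266027-99266050, plus strand: catTGCttggcaggtatcagccgc
Dusp3, chr11:101974902-101974925, minus strand: catTGCcgcgagggctacagccgc

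The 3′ UTRs differ among members in ATTTA, the core of AU-rich elements that the zinc finger protein TTP (Zfp36) and its relatives bind. ATTTA, searched on the transcript strand with overlaps counted, was present in 8 of 9 members and in 67.5% of all genes with a transcript. Dusp7 had none. The longer TTATTTATT was found 2 times in Dusp1 and in no other member, against 7.57% of all genes. The windows below, with each ATTTA in capitals, show the Dusp1 element beside the paired elements of Dusp2 and Dusp16.
Dusp1, chr17:26506157-26506186, minus strand: agctggtccttATTTATTTAacacccccct
Dusp2, chr2:127337998-127338027, plus strand: aaattaATTTAattaattaATTTActatat
Dusp16, chr6:134715962-134715991, minus strand: ggtaagatgtaATTTATTTAagaatgaaaa

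The start codons are shown for the members at both ends of the polysome values described below, Dusp7 and Dusp6, with the start codon in capitals.
Dusp7, chr9:106368786-106368806, plus strand: cccgggatccccATGaaaaac
Dusp6, chr10:99263680-99263700, plus strand: agctcgacccccATGatagat

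Polysome libraries held 7034173 to 28257436 counts and total mRNA libraries 18018519 to 55609113. Markers of the sorted cells were present and the excluded marker was at or near 0: Csf1r, the receptor for the macrophage growth factor CSF1, was at 487 to 12477 CPM on polysomes and 647 to 4337 CPM in total mRNA, and Ly6g, the granulocyte antigen used to remove neutrophils, had no count in 10 of 13 polysome and 9 of 13 total mRNA libraries (CPM, the count scaled to library depth, here with TMM factors). Itgam and Adgre1, the genes of the antigens used to select the cells, had counts in every library. Itgam had medians of 343 CPM on polysomes and 271 CPM in total mRNA, and Adgre1 225 and 762 CPM. Another neutrophil gene, S100a8, had no count in only 3 of 13 polysome and 1 of 13 total mRNA libraries. It reached 37.5 and 21.5 CPM. A list of 7 neutrophil genes summed to at most 63.9 CPM on polysomes and 42.6 CPM in total mRNA. The tumour small replicate 7 stood apart. Its 9 macrophage markers summed to 2443 CPM on polysomes and 8147 CPM in total mRNA, the lowest of the 13 tumours in both. Its fibroblast list (Col1a1, Col1a2, Col3a1, Dcn, Lum, Pdgfra) summed to 1873 and 2564 CPM and its epithelial list (Epcam, Krt8, Krt18, Krt19, Cdh1, Csn3) to 1073 and 4011 CPM, the highest in both. Fold changes, levels and correlations are therefore also given without it for some of the values that it moved. Small replicate 1 had the next highest fibroblast sums, 403 CPM on polysomes and 1892 CPM in total mRNA. Its macrophage sum on polysomes, 9349 CPM, was the next lowest. Its macrophage sum in total mRNA ranked 10 from the highest, and its epithelial sums ranked 7 on polysomes and 5 in total mRNA. Large replicate 3 had the next highest epithelial sums, 417 CPM on polysomes and 759 CPM in total mRNA. The macrophage sums of large replicate 3 ranked 6 on polysomes and 1 in total mRNA, and its fibroblast sums 4 and 5. In bulk RNA, fewer cells of a type and less RNA per cell cannot be told apart.

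Dusp1 and Dusp6 took most of the family's reads. Together they held 72.1 ± 9.8% of the summed CPM of the 9 members on polysomes and 80.1 ± 8.4% in total mRNA (SD, n = 13, shares of reads that are not corrected for length). Compared per length, as CPM per kb of the annotated transcript, the polysome levels ran Dusp1 (265 ± 158), Dusp6 (178 ± 101), Dusp3 (48.6 ± 19.3), Dusp7 (23.8 ± 11.5), Dusp2 (7.70 ± 7.14), Dusp16 (4.06 ± 2.55), Dusp10 (3.54 ± 2.27), Dusp5 (2.82 ± 2.13) and Dusp4 (2.45 ± 3.27). Of neighbours in that order, only Dusp6 and Dusp3 were separated by more than their SDs. In total mRNA the order was Dusp1 (193 ± 159 CPM per kb), Dusp6 (167 ± 77), Dusp3 (35.1 ± 10.1), Dusp2 (3.18 ± 3.64), Dusp7 (2.71 ± 1.23), Dusp16 (2.34 ± 0.97), Dusp10 (1.43 ± 0.53), Dusp4 (1.10 ± 1.43) and Dusp5 (0.54 ± 0.62). There Dusp6 and Dusp3, and Dusp3 and Dusp2, were separated by more than their SDs, and the other neighbours were not. Dusp7 stood in the fourth place on polysomes and the fifth in total mRNA, and its share of the family's CPM was 5.76 ± 2.45% on polysomes and 0.95 ± 0.56% in total mRNA. Without small replicate 7 both orders were the same, Dusp1 and Dusp6 held 72.4% and 79.6% of the summed CPM, and Dusp4 averaged 1.63 ± 1.49 CPM per kb on polysomes and 0.75 ± 0.65 in total mRNA (n = 12).

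**Figure D1:**
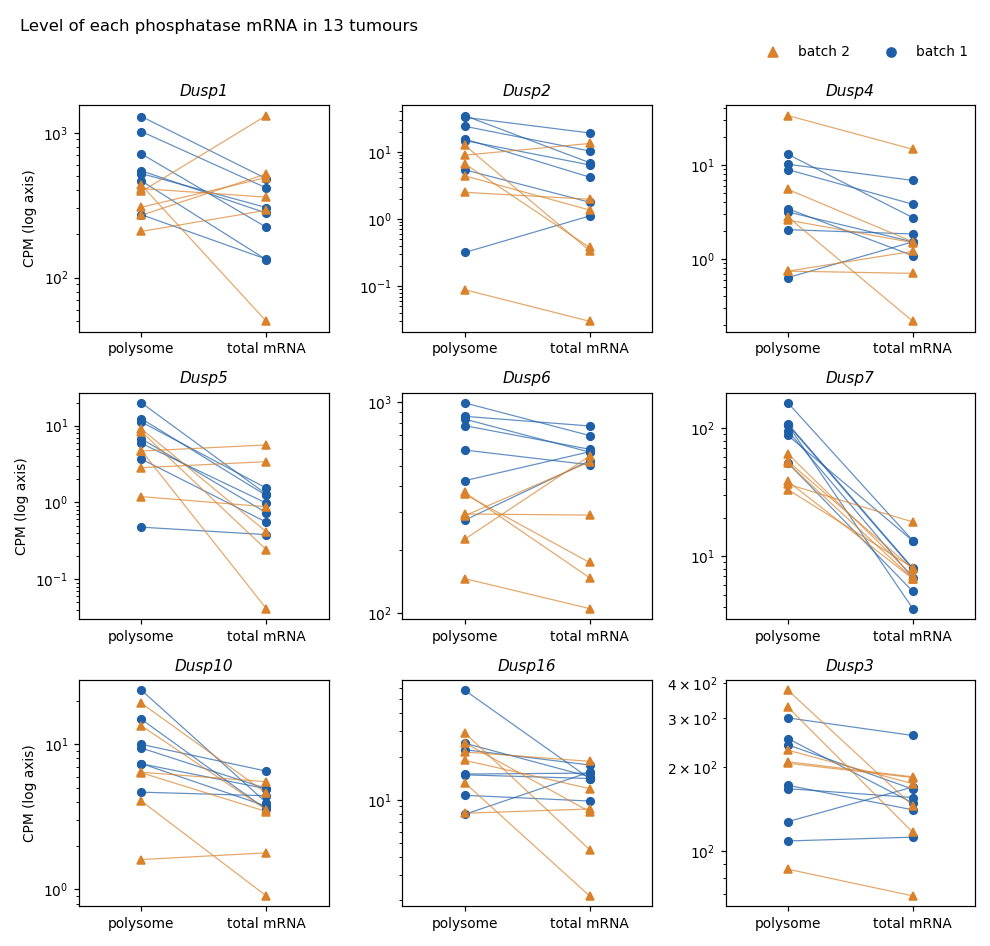
TMM-scaled CPM of each member on polysomes (left) and in total mRNA (right), on a log axis, with a line joining the 2 libraries of a tumour and batch 2 and batch 1 in different colours and symbols. A count of 0 is drawn at the foot of the axis. Dusp7 is the member whose polysome and total mRNA levels do not overlap, while Dusp6 has lines that go both ways.

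The comparison of polysomes with total mRNA asks which mRNAs were over-represented among those with several ribosomes. All 9 members had a log2 fold above 0, with a median of 0.97 against −0.34 over all 12109 genes tested. At the edgeR threshold of an adjusted p below 0.05, 7 of 9 members were on the higher side, where 22.6% of all genes were, and 0 of 9 on the lower side, where 34% were. Since this contrast chose the members, nothing is read from these counts. Without small replicate 7 the count was again 7, beside 2840 of 11894 genes, and the folds ran between 0.08 (Dusp6) and 3.06 (Dusp7). The values follow by role.

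Among the cytoplasmic ERK phosphatases, Dusp7 and Dusp6 stood at the opposite ends of the family. Dusp7 had 33.1 to 157 CPM on polysomes (median 62.8), against 3.90 to 18.5 CPM in total mRNA (median 7.94). Every polysome library was above every total mRNA library, which was so for 1.29% of all genes tested. Its log2 fold was 3.04 ± 0.24 (SE), an 8.24-fold difference, and it was higher on polysomes in 13 of 13 tumours, by 0.98 to 4.75 per tumour. The fold was 2.96 to 3.17 with any single tumour left out.

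Dusp6 had 146 to 995 CPM on polysomes (median 374), against 105 to 773 CPM in total mRNA (median 528). The groups overlapped throughout, and the polysome level was the higher one in 9 of 13 tumours. Its log2 fold was 0.03 ± 0.21, the lowest of the family, with per-tumour differences between −1.31 in large replicate 4 and 1.35 in large replicate 3. With a tumour left out the fold ran between −0.15 and 0.23, so its sign is not settled.

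The nuclear phosphatases were all on the polysome side, with wide spreads. Dusp5, whose product is a nuclear ERK phosphatase, had 0.48 to 19.8 CPM on polysomes (median 5.87), against 0.041 to 5.61 CPM in total mRNA (median 0.88). The groups overlapped, and 11 of 13 tumours were higher on polysomes. Its log2 fold was 2.71 ± 0.68, or 2.44 ± 0.61 without small replicate 7, and the per-tumour differences ran between −0.26 and 5.81. Its total mRNA counts were 2 to 140 reads, and the annotated gene AC137853.2 overlaps it on the other strand, so in these unstranded libraries their reads cannot be told apart.

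Dusp2, a nuclear phosphatase of ERK and p38 known from activated lymphocytes and mast cells, had 0.088 to 34.5 CPM on polysomes (median 8.89), against 0 to 19.1 CPM in total mRNA (median 1.96). The groups overlapped, and 11 of 13 tumours were higher on polysomes. The count of 0, in total mRNA of small replicate 7, allows a level of up to 0.062 CPM (3 counts, counting error only). That tumour, counted among the 11, had 2 reads on polysomes. Its difference of 1.59 depended on the prior count and was 0.49 and 3.18 with other prior counts. The log2 fold of Dusp2 was 1.59 ± 0.50. Dusp4, a nuclear phosphatase of ERK and JNK, had 0.63 to 33.6 CPM on polysomes (median 3.16), against 0.22 to 14.7 CPM in total mRNA (median 1.52). Its log2 fold was 0.97 ± 0.48, with 11 of 13 tumours higher on polysomes, and it was, with Dusp6, not among the 7 on the higher side.

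Dusp1, the nuclear phosphatase of p38 and JNK, had 208 to 1295 CPM on polysomes (median 435), against 49.9 to 1315 CPM in total mRNA (median 305). The groups overlapped and 9 of 13 tumours were higher on polysomes. Its log2 fold over both batches was 0.62 ± 0.26. The estimates of the batches, described below, had opposite signs, and the sign in batch 2 was not settled.

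The JNK and p38 phosphatases both had folds above 0. Dusp10 had 1.61 to 23.6 CPM on polysomes (median 7.38), against 0.90 to 6.55 CPM in total mRNA (median 3.97). The level was higher on polysomes in 12 of 13 tumours, and the log2 fold was 1.04 ± 0.37. Dusp16 had 7.93 to 57.8 CPM on polysomes (median 18.8), against 2.15 to 18.5 CPM in total mRNA (median 14.1). It was higher on polysomes in 10 of 13 tumours, with a log2 fold of 0.74 ± 0.30. Dusp3 had 86.1 to 377 CPM on polysomes (median 209), against 69.1 to 260 CPM in total mRNA (median 156), and was higher in 11 of 13 tumours. Its log2 fold of 0.45 ± 0.18 was the smallest of the 7 on the higher side. The annotated gene Gm20659 overlaps Dusp3 on the other strand, and their reads cannot be told apart either.

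The folds were also fitted within each batch. In batch 2 alone the log2 folds were 2.50 for Dusp5, 2.43 for Dusp7, 2.25 for Dusp2, 1.30 for Dusp16, 1.20 for Dusp10, 1.14 for Dusp4, 0.68 for Dusp3, 0.12 for Dusp6 and −0.15 for Dusp1. In batch 1 alone they were 3.53 for Dusp7, 2.86 for Dusp5, 1.42 for Dusp1, 0.99 for Dusp10, 0.85 for Dusp4, 0.82 for Dusp2, 0.43 for Dusp16, 0.19 for Dusp3 and 0.06 for Dusp6. By value Dusp7 and Dusp5 held the first 2 places in both. In batch 2 the SEs of Dusp5 (1.23), Dusp2 (1.04) and Dusp7 (0.36) leave their order unsettled. Dusp1 was the member whose estimates had opposite signs, but at −0.15 ± 0.49 (SE) its sign in batch 2 is not settled. On the higher side were 2 members in batch 2 alone, beside 1690 of all 12081 genes tested. In batch 1 alone there were 3, beside 2682 of 12603 genes. Without the tumour as a block, 4 members were on the higher side, beside 2656 of 12109 genes. Of single tumours, leaving out large replicate 3 gave 4, beside 2632 of 12293 genes, and took the fold of Dusp1 to 0.32.

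The polysome minus total differences also varied with the batch. Of 12109 genes, 1266 had a higher association in batch 2 than in batch 1 (10.5%) and 841 a lower one (6.95%), with a median log2 difference of 0.26 over all genes (edgeR quasi-likelihood test, adjusted p below 0.05). Among members, 1 of 9 was on the lower side, Dusp1, and 0 of 9 on the higher side. Dusp1 was no longer there when small replicate 4, 6 or 7 or large replicate 2 or 4 was left out. These differences are made of the same per-tumour values that chose the members, so nothing is read from the counts.

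Dusp1 had the most negative batch difference of the family. In batch 2 its polysome level was 435, 269.7 and 208 CPM in large replicates 3 to 5 and 393, 306 and 412 CPM in small replicates 6 to 8. The total mRNA level of the same tumours was 49.9, 519.8 and 292 CPM in large replicates 3 to 5 and 1315, 490.5 and 359 CPM in small replicates 6 to 8. In 4 of these 6 tumours total mRNA was therefore above polysomes, small replicate 8 was 0.20 higher on polysomes on the log2 scale, and large replicate 3 was 3.12 higher. In batch 1 the polysome level was 272 to 1295 CPM (median 546), against 133 to 482 CPM in total mRNA (median 279), and polysomes were higher in 7 of 7 tumours, by 0.78 to 1.81.

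The difference of Dusp1 was −1.63 ± 0.51 on the log2 scale (batch 2 minus batch 1, SE). It was −1.30 without small replicate 6, −2.04 without large replicate 3, the batch 2 tumour that went against the others, and −1.61 without small replicate 7. The sign was negative in each of the 13 fits that left out a tumour.

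Early response genes that tissue dissociation is known to induce (Fos, Jun, Egr1, Hspa1a, Hspa1b and Atf3) were set beside Dusp1, and all 6 were in the tables. Their summed level in batch 2 was 792 to 2358 CPM on polysomes and 1315 to 4405 CPM in total mRNA, and the polysome sum was the lower one in 6 of 6 tumours. In batch 1 it was 1765 to 4614 CPM on polysomes and 844 to 2451 CPM in total mRNA, and the polysome sum was the higher one in 7 of 7 tumours. The genes did not all follow the sum. Fos was higher on polysomes in 0 of 6 tumours of batch 2 and 7 of 7 of batch 1, and Egr1 in 3 of 6 and 7 of 7. Jun was higher on polysomes in 0 of 6 tumours of batch 2 and 1 of 7 of batch 1, Atf3 likewise, Hspa1a in 0 of 6 and 3 of 7, and Hspa1b in 0 of 6 and 2 of 7. The batch difference passed the edgeR threshold for Fos (−1.80 ± 0.32, adjusted p = 0.000372) and Egr1 (−1.98 ± 0.52, adjusted p = 0.00896) and not for the other 4, whose values ran between −1.66 and −0.64. Their part in the difference of Dusp1 was not tested, and the batches cannot be told apart from anything else that differed between them.

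The 8 factors that bind AU-rich mRNAs went both ways between batches, with 2 higher and 2 lower. Zfp36, which encodes TTP, had a batch difference of −3.39 ± 0.43 (adjusted p = 1.5e-05 by edgeR) and its relative Zfp36l1 one of −3.74 ± 0.50 (adjusted p = 2.63e-05). Tia1, which encodes a translational repressor, was at 1.87 ± 0.45 (adjusted p = 0.00558).

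**Figure D2:**
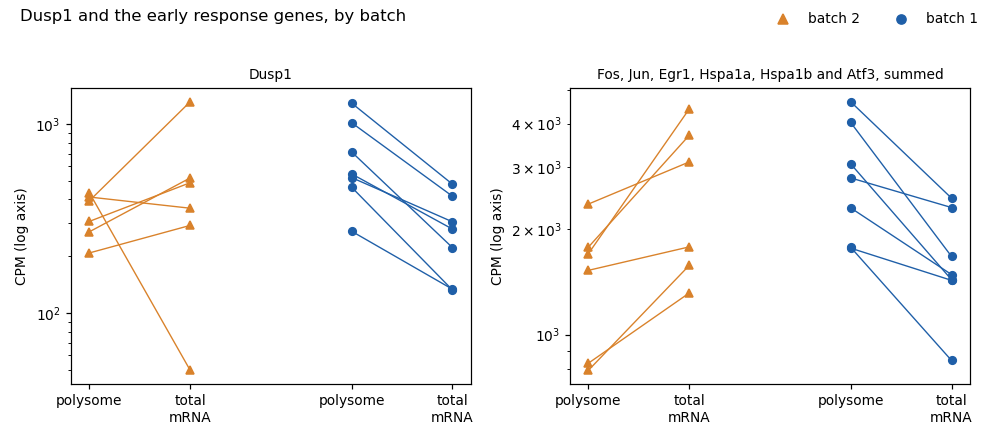
CPM on a log axis of Dusp1 (left panel) and of the 6 early response genes summed (right panel), with a line joining the polysome and total mRNA libraries of each tumour, batch 2 to the left of batch 1 in each panel. In batch 1 all 7 lines of both panels fall towards total mRNA, and in batch 2 the 6 lines of the early response sum rise towards it while those of Dusp1 go both ways. Fos has the highest median level of the 6 genes in both batches and both RNA sources.

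Dusp7 had a batch difference of −1.24 ± 0.44, which ran between −1.51 and −0.86 with a tumour left out. Its polysome level was 33.1 to 62.8 CPM in batch 2 (median 45.7) and 53.5 to 157 CPM in batch 1 (median 106), and its total mRNA level was 6.66 to 18.5 CPM in batch 2 (median 7.50) and 3.90 to 13.2 CPM in batch 1 (median 7.94). The batches overlapped in both RNA sources.

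The other 7 members had batch differences of 1.33 ± 1.01 for Dusp2, 1.06 ± 0.60 for Dusp16, 0.41 ± 0.35 for Dusp3, 0.27 ± 0.72 for Dusp10, 0.27 ± 0.92 for Dusp4, 0.17 ± 0.42 for Dusp6 and −0.44 ± 1.40 for Dusp5 (log2, SE). The SEs of Dusp5, Dusp2 and Dusp4, 0.92 to 1.40, were the widest of the family. Without small replicate 7 the difference of Dusp5 was −1.41 ± 1.20 and that of Dusp16 was 0.75 ± 0.63.

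**Figure D3:**
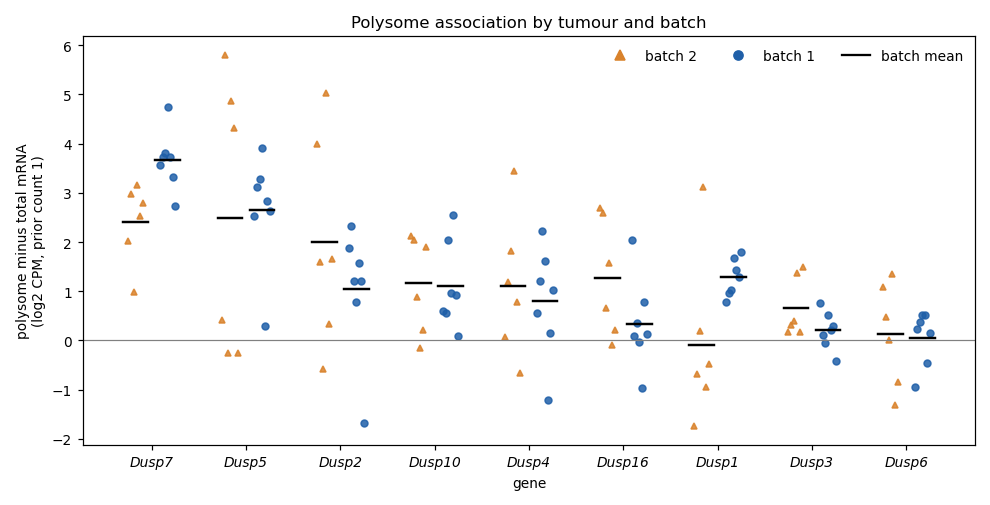
Polysome minus total mRNA of each tumour, in log2 CPM with a prior count of 1, for the 9 members in the order of their folds, with batch 2 left of batch 1 and a bar at the mean of each batch. Dusp7 is above 0 in all 13 tumours, and Dusp1 is above 0 in the 7 tumours of batch 1 and between −1.74 and 3.12 in batch 2.

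Tumour size was compared within each RNA source, as large against small with batch as a covariate. In total mRNA edgeR called 0 of 11671 genes (0%), as did DESeq2 and limma voom, and 538 genes had an unadjusted p below 0.05 (4.61%). In polysome mRNA edgeR called 0 of 10933 genes (0%), limma voom 0 and DESeq2 147, none of them a member, and 1362 genes had an unadjusted p below 0.05 (12.5%). In both sources 3 of 9 members had a fold above 0.

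Over all 13 tumours Dusp4 was the member with the lowest size values, a place that in total mRNA rested on small replicate 7. On polysomes it had 2.05, 3.16, 2.80, 2.59 and 0.74 CPM in large replicates 1 to 5, against 0.63 to 33.6 CPM in small tumours (median 7.22). In total mRNA it had 1.84, 1.52, 0.22, 1.49 and 1.21 CPM in large replicates 1 to 5, against 0.70 to 14.7 CPM in small tumours (median 2.14). The groups overlapped in both sources, and small replicate 7 held the highest value in both. The log2 folds of large against small were −2.01 ± 0.85 on polysomes and −1.77 ± 0.79 in total mRNA, and −1.08 ± 0.89 and −0.66 ± 0.65 without small replicate 7. In total mRNA without that tumour, Dusp2 (−1.83 ± 0.83) and Dusp1 (−0.76 ± 0.55) had lower folds than Dusp4. Small replicate 7 also had the highest fibroblast and epithelial marker sums and the lowest macrophage sum, as given above, and their part in the value was not tested.

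Dusp1 and Dusp2 had lower means in total mRNA of large tumours. Dusp1 had 416, 133, 49.9, 519.8 and 292 CPM in large replicates 1 to 5, against 134 to 1315 CPM in small tumours (median 332), a log2 fold of −0.72 ± 0.53. Single tumours moved it: it was −1.30 with large replicate 1 left out, −0.42 with large replicate 3 and −0.30 with small replicate 6. Fitted by batch it was −1.33 in batch 2 and −0.06 in batch 1. Dusp2 had 6.37, 1.11, 0.34, 1.96 and 1.36 CPM in large replicates 1 to 5, against 0 to 19.1 CPM in small tumours (median 5.54), a log2 fold of −1.59 ± 1.06. Both sets of values overlapped, and the fold of Dusp2 was 0.53 without small replicate 8 and −2.32 to −1.32 with any other tumour left out. On polysomes the folds were −0.02 ± 0.35 for Dusp1 and −0.51 ± 0.96 for Dusp2.

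Dusp6 was the member with the highest value for large tumours in total mRNA. It had 583, 773, 147, 556 and 521 CPM in large replicates 1 to 5, against 105 to 696 CPM in small tumours (median 517), a log2 fold of 0.62 ± 0.35, with overlapping groups. Fitted by batch this fold was 1.06 in batch 2 and 0.19 in batch 1. Without small replicate 7 it was 0.43 ± 0.33. On polysomes the fold of Dusp6 was 0.07 ± 0.35, and −0.13 ± 0.32 without small replicate 7. The others had folds between −0.30 ± 0.90 (Dusp5) and 0.29 ± 0.43 (Dusp16) in total mRNA and between −0.58 ± 0.59 (Dusp10) and 0.42 ± 0.75 (Dusp5) on polysomes. Dusp7 was at −0.27 ± 0.38 in total mRNA and −0.08 ± 0.31 on polysomes. Without small replicate 7, Dusp16 was at 0.006 ± 0.36 in total mRNA. On polysomes Dusp3 was at −0.05 ± 0.34 without that tumour, against 0.24 ± 0.38 with it.

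**Figure D4:**
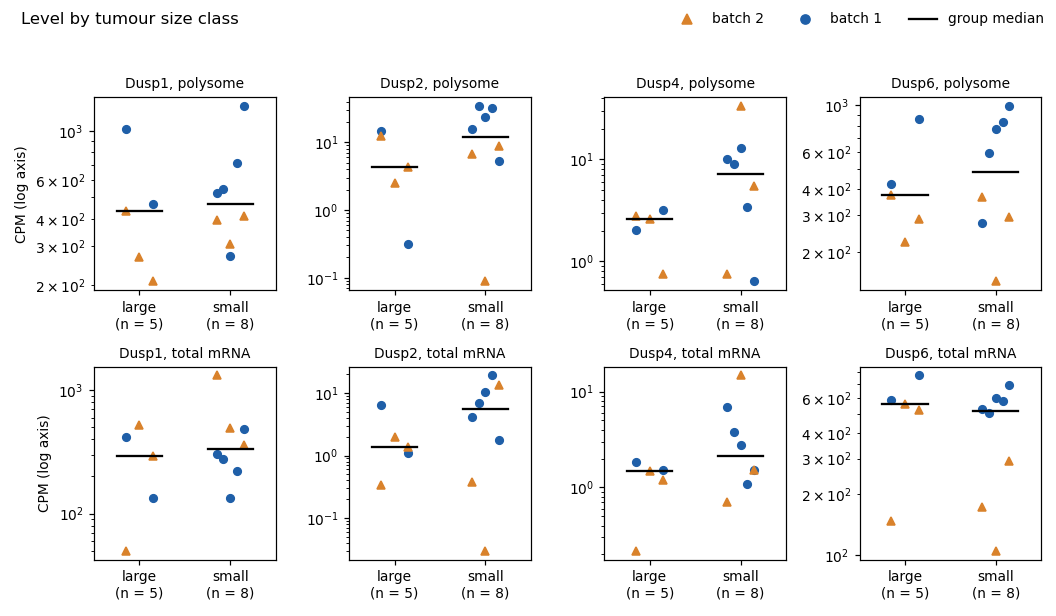
CPM on a log axis of Dusp1, Dusp2, Dusp4 and Dusp6 on polysomes (upper row) and in total mRNA (lower row) in large tumours (n = 5, left) and small tumours (n = 8, right), with batch 2 and batch 1 in different symbols and a bar at the median of each group. A count of 0 is drawn at the foot of the axis. All 8 pairs of groups overlap, and the highest Dusp4 point of both rows is small replicate 7.

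The effect of size on polysome association asks whether the polysome difference itself was another in large tumours. No gene of 12109 passed in edgeR (0%) or limma voom and 129 did in DESeq2, of which no member, and 1385 genes had an unadjusted p below 0.05 (11.4%). The values, large minus small on the log2 scale, were 0.73 ± 0.53 for Dusp1, 0.70 ± 1.33 for Dusp5, 0.19 ± 0.36 for Dusp3, −0.02 ± 0.45 for Dusp7, −0.14 ± 0.98 for Dusp4, −0.56 ± 0.43 for Dusp6, −0.64 ± 0.61 for Dusp16, −0.90 ± 0.99 for Dusp2 and −0.95 ± 0.74 for Dusp10. Without small replicate 7, Dusp5 was at 1.39 ± 1.18 and Dusp7 at 0.17 ± 0.47. Dusp7, the member with the highest polysome fold, had a mean difference of 2.82 ± 0.32 in 3 large tumours and 1.99 ± 1.00 in 3 small tumours of batch 2 (SD). In batch 1 it was 3.03 ± 0.42 in 2 large tumours and 3.92 ± 0.47 in 5 small tumours. Dusp10 was higher on polysomes in 4 of 5 large and 8 of 8 small tumours, with mean differences of 0.60 ± 0.84 and 1.47 ± 0.80 (SD).

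Some properties of the mRNAs that the choice did not use were set beside the polysome folds, as a description over 9 points whose folds chose the members. The 5′ UTR of Dusp7 was 88.0% G+C over 166 bases, at percentile 98.1 of all tested genes with a transcript. Those of Dusp5 (76.1%), Dusp2 (68.4%) and Dusp1 (64.3%) were at or above the median of all genes, 64.3%, and those of Dusp4 (62.3%), Dusp6 (56.8%), Dusp16 (54.8%), Dusp10 (54.6%) and Dusp3 (52.4%) below it. Spearman's rho between 5′ UTR G+C and the log2 fold was 0.70 over the 9 members and 0.24 over 10941 genes. With the mean difference of each batch in place of the fold it was 0.55 in batch 2 and 0.73 in batch 1 over the members, and 0.21 and 0.22 over all genes. Of 8 features set beside the fold, this rho was the largest in size over the members. Transcript G+C gave 0.63 over the members and 0.34 over all genes, 5′ UTR length −0.63 and 0.10, and the number of upstream ATG codons −0.55 and 0.05, while the other 4 lay between −0.32 and 0.35 over the members. By batch over the members, 5′ UTR length gave −0.37 in batch 2 and −0.73 in batch 1, and upstream ATG codons −0.32 and −0.71. In batch 1 the G+C of the 5′ UTR therefore did not stand apart from these. All points share the same 26 libraries.

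Members were also set side by side by ATG codons upstream of the start codon (ATG in any frame, transcript strand), which 51.6% of all genes with a transcript have. Dusp1, Dusp2, Dusp5 and Dusp7 had none in the annotated 5′ UTR, and their folds had a median of 2.15 (0.62 to 3.04). Dusp4 and Dusp6 had 1, Dusp10 had 4 and Dusp3 and Dusp16 had 7 each, and the folds of these 5 members had a median of 0.74 (0.03 to 1.04). Over all genes the medians differed the other way, −0.26 for 5721 genes with an upstream ATG and −0.43 for 5358 without. Between ATTTA per kb of 3′ UTR and the fold, rho was −0.05 over the members and −0.09 over 10985 genes. Each value comes from 1 annotated transcript per gene, which may not be the form in these cells.

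**Figure D5:**
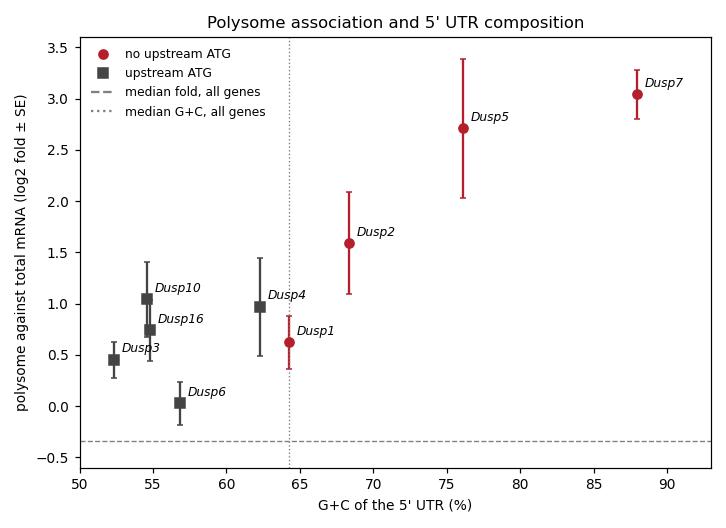
Log2 fold of polysome against total mRNA (± SE) of each member against the G+C content of its 5′ UTR in percent, with symbols for members with and without an upstream ATG and lines at the medians of all genes. Dusp7 and Dusp5 lie at the upper right, with 88.0% and 76.1% G+C, and Dusp6 and Dusp3 at the lower left.

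Total mRNA and polysome levels of a member tracked each other across tumours to different degrees, after the mean of each batch was taken off. Pearson's r over the 13 tumours was 0.71 for Dusp2, 0.70 for Dusp4 and 0.63 for Dusp3, 0.45 for Dusp10 and 0.27 for Dusp1. It was lowest for Dusp6 (0.20), Dusp16 (0.12), Dusp7 (0.11) and Dusp5 (0.09). Without small replicate 7 the values were lower for Dusp2 (0.49), Dusp4 (0.43) and Dusp3 (0.28), and that of Dusp6 was −0.13. These are descriptions over libraries made in pairs from the same cells. Among the 36 pairs of members, over the 26 libraries with the mean of each RNA source and batch taken off, r ran between −0.64 (Dusp4 and Dusp3) and 0.59 (Dusp2 and Dusp16). Without small replicate 7 these pairs were at −0.31 and 0.48, and the highest was Dusp4 and Dusp5 at 0.58.

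The genes most like each member over the same 26 centred libraries were sought among the 8007 genes whose mean reached 10 CPM. For Dusp7 they were Tns2 (Pearson's r = 0.68), Zfp362 (0.67) and Fhl3 (0.65), and for Dusp1 Pgp (0.82), Ctnnbip1 (0.77) and Trp53rka (0.76). For Dusp4 they were Ltbp4 (0.88), Col8a1 (0.85) and Bcar1 (0.84), and for Dusp2 Csrnp1 (0.87), Cd52 (0.86) and Mcur1 (0.83). The closest gene to Dusp5 was Plekho2 (0.87), to Dusp16 Ocrl (0.82), to Dusp10 Zfp317 (0.81) and to Dusp3 Svbp (0.84). For Dusp6 it was a row of joined Ugt1a genes (0.90), followed by Sema4a (0.86) and Sash3 (0.86). Without small replicate 7 the closest gene was the same for Dusp1, Dusp2, Dusp6 and Dusp10 and another for the other 5 members. For Dusp4 it was then Smo (0.81), with Ltbp4 at 0.78 and Col8a1 at 0.71, for Dusp7 Fhl3 (0.77), for Dusp5 Ttyh3 (0.87), for Dusp16 Kdm6a (0.82) and for Dusp3 Cenpa (0.71).

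The rest of the pathway gives the setting of these values. Over all genes tested, 22.6% were higher and 34% lower on polysomes, with a median log2 fold of −0.34, beside which the counts below stand. Of the other typical MAP kinase phosphatases, Dusp8 and Dusp9, both were tested and 1 was higher on polysomes: Dusp8, a JNK and p38 phosphatase close to Dusp16, with 25.4 ± 26.9 CPM on polysomes and 2.14 ± 1.87 CPM in total mRNA (SD, n = 13), a log2 fold of 3.11 ± 0.44 (adjusted p = 1.99e-06 by edgeR). Its batch difference was −2.74 ± 0.85 (adjusted p = 0.0257), of the sign of Dusp1 and Dusp7. Of 11 atypical dual-specificity phosphatases tested, 3 were higher, Dusp11 (0.72 ± 0.20) and Dusp18 (0.84 ± 0.30) among them, and 3 lower, among them Dusp12 (−0.92 ± 0.31), with a median fold of −0.24.

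The MAP kinase genes, among them those of the kinases that the phosphatases act on, were also divided. Of 11 MAP kinases tested, 6 were higher on polysomes and 1 lower, with a median log2 fold of 0.82. Mapk3, which encodes ERK1, had a fold of 1.11 ± 0.22. Of 15 MAP3K and RAF genes 9 were higher and 2 lower, of 11 RAS and adaptor genes 7 and 1, of 10 MAPK-activated kinases 6 and 1, and of 7 MAP2K genes 1 and 1. Among 13 other negative regulators 5 were higher and 1 lower, with Spred2, an inhibitor of the RAS to RAF step, at 2.72 ± 0.33. Of 7 scaffold genes 4 were higher and 1 lower, and of 8 factors that bind AU-rich mRNAs 5 and 1, with Zfp36 at 1.79 ± 0.22.

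Transcripts known to be induced by ERK signalling gave 8 higher and 2 lower of 19 tested, with a median fold of 0.59. In the batch difference 6 of these 19 were lower, where 6.95% of all genes were, and 0 higher, where 10.5% were, with a median of −0.68 against 0.26 over all genes. The 3 with the lowest p were Fos (−1.80 ± 0.32), Ier2 (−2.43 ± 0.47) and Ier3 (−1.88 ± 0.37). Fos, Egr1 and Jun are also among the early response genes above, and of these Fos and Egr1 were among the 6, so the lists are not independent. None of the 11 lists of other pathway genes had a gene that edgeR called for size in any of the 3 size comparisons.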

How the data were processed

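The authors deposited, for each of the 26 libraries, a table of whole-number read counts per gene for 19549 gene rows and a column of log2 values for 10472 of them. The deposited log2 values were log2 CPM shifted by a constant per library (largest deviation 5.15e-14) and were only checked. HISAT, HISAT2, limma and mm10 are named without a role or version, per the submitters' processing notes. How reads were counted, against which annotation and with which strand setting, is not given in the sources used here. Libraries were made with SmartSeq2, which does not mark the strand, per the labels' protocols. No row that joins several genes held a member.

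After filterByExpr and TMM scaling, genes were tested in edgeR 4.0.16 (R 4.3.3) by its quasi-likelihood F-test in the robust form, with Benjamini-Hochberg adjustment over all genes and a threshold of 0.05. SEs of folds were taken from the F statistics. Polysome against total mRNA, its size effect and its batch difference came from 1 fit over 26 libraries with the tumour as a block. Size was fitted in polysome and in total mRNA libraries apart, adjusting for batch. Tumours over 1000 mg were called large, a limit set here that falls in a gap of the weights and parts the labels' ER and LR tumours. Both libraries of a tumour come from the same sorted cells, per the labels. Their deviations from group means correlated with a median r of 0.249 (lowest 0.0372), against −0.0167 between tumours. Each tumour is treated as a separate sample, so p-values measure the spread between tumours.

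Per-tumour differences are on log2 CPM, prior count 1. The batch difference was planned as a test of the members too, and is given for them without a p-value, since it is made of the per-tumour differences that chose them. Alternatives used DESeq2 1.42.0, limma 3.58.1 (voom), RLE and upper-quartile scaling, other filters, other designs and each tumour left out. Levels and correlations without small replicate 7 were added after seeing the data. The fits of polysome against total mRNA and of the batch difference were tested on simulated counts that held no tumour effect. The 3 size comparisons were not. Members and gene lists were chosen with earlier results of these data known. Named pathway genes were, per list, up to 3 in each direction with the lowest p, averaging 10 CPM or more. Transcript features came from 1 GENCODE M21 transcript per gene, available for 11079 of 12109 tested genes.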

Additional observations from a re-analysis of the deposited data

Results flagged for a closer look

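The batch difference in the polysome association of Dusp1, −1.63 on the log2 scale (batch 2 minus batch 1), was past the edgeR threshold. It comes from the per-tumour values that chose the members and stands as a description.

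In 54 groups of 5 or 8 tumours (a member, an RNA source or the difference, and a size class), 7 had a sample far from the rest by Dixon's test. This test flags about 1 in 20 groups of independent, normally spread values. All 7 were high values of CPM without a log scale, and the groups share tumours, so their number cannot be set against that rate. Dusp1 was at 1295 CPM on polysomes of small replicate 5, against 272 to 715 CPM in the other small tumours. Its total mRNA level in small replicate 6 was 1315 CPM, against 134 to 490.5 CPM. Dusp2 was at 6.37 CPM in total mRNA of large replicate 1, against 0.34 to 1.96 CPM in the other large tumours. Dusp4 was at 33.6 CPM on polysomes and 14.7 CPM in total mRNA of small replicate 7, against 0.63 to 13.0 and 0.70 to 6.86 CPM in the other small tumours. Dusp5 was at 5.61 CPM in total mRNA of small replicate 8, against 0.041 to 1.28 CPM. Dusp16 was at 57.8 CPM on polysomes of small replicate 1, against 7.93 to 29.2 CPM.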

How the results depend on the processing

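Of 12109 genes, 6857 passed in polysome against total mRNA (2741 higher and 4116 lower), 3606 in batch 2 alone and 6364 to 6834 with a tumour left out. The number of members on the higher side, 7, was 4 over genes averaging 10 CPM or more, where Dusp2, Dusp4, Dusp5 and Dusp10 fell below the filter and 4 of the 5 members left passed, 4 with no replicate block, 4 with RNA source and the tumour block only, 3 in batch 1 alone, 2 in batch 2 alone and 4 to 7 with a tumour left out. Over all genes the higher side held 2523 of 8053 averaging 10 CPM or more, and 2656 of 12109 with no replicate block. It held 2567 of 12109 with RNA source and the tumour block only, 2682 of 12603 in batch 1 alone and 1690 of 12081 in batch 2 alone. DESeq2 and limma voom gave 8 members, with Dusp4 as the added one, beside 3214 and 2977 of 12109 genes. Dusp1 was at −0.15 ± 0.49 (SE) in batch 2 alone. With no replicate block the size effect on Dusp1 was 0.61 and its batch difference −1.87, and the batch difference of Dusp2 was −0.22.

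For size in polysome mRNA, where the main count was 0 genes, there were 3 with no filter, 147 with DESeq2, 1 with log2 weight as a slope and 0 to 42 with a tumour left out (42 without small replicate 5). For the size effect on polysome association there were 8 with no filter and 129 with DESeq2. The batch difference passed for 2107 genes, 1385 to 2227 with a tumour left out, and its members on the lower side, 1, were 2 with RLE scaling, over genes averaging 10 CPM or more and with DESeq2, and 0 to 2 with a tumour left out. Over all genes the lower side held 841 of 12109 in the main fit. It held 1013 of 12109 with RLE scaling, 949 of 8053 averaging 10 CPM or more and 1448 of 12109 with DESeq2. With a tumour left out, the batch differences of Dusp4, Dusp5 and Dusp6, which were not called, ran between −0.12 and 0.55, −1.41 and 0.54, and −0.081 and 0.32. RLE scaling took the median batch difference of all genes to 0.15, against 0.26. The cause of the other changes was not tested. Depth limits Dusp5, Dusp4 and Dusp2 most, whose total mRNA counts reached down to 2, 9 and 0 reads.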
